A study of Mus musculus with 16 samples.

Results

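The cytochrome P450 genes and the carboxylesterase genes were examined in kidneys of diabetic and control mice. Members were the genes whose symbol is Cyp or Ces followed by a family number and the usual subfamily letter and gene number, leaving out the vitamin D genes Cyp27b1 and Cyp24a1. The pattern found 94 genes, of which 89 were in the cortex table of 34264 genes and 80 in the glomerular table of 24722 genes, and 75 were in both. RNA had been sequenced from isolated glomeruli, the capillary tufts that filter blood, and from renal cortex, which is mostly tubule. The diabetic glomeruli and diabetic cortex came from wild-type mice aged 24 weeks made diabetic with HFD/STZ, that is, a high-fat diet together with streptozotocin, which kills insulin-producing cells. The control glomeruli and control cortex came from wild-type control mice of the same age. Each group had 4 libraries, 16 in all and all of batch 1, and the diet, the toxin and the diabetic state cannot be told apart. The labels number the libraries without saying that each is a separate animal, so each p-value speaks of the spread between libraries, and that spread may be technical.

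Cytochrome P450 enzymes hold a heme iron and insert an oxygen atom into fatty acids, steroids, bile acid precursors, retinoids and drugs. In the endoplasmic reticulum they take their electrons from the reductase Por. In the kidney most of them sit in the proximal tubule. Some, but not all, Cyp4a enzymes turn arachidonic acid into the vasoconstrictor 20-HETE, and Cyp2c and Cyp2j enzymes turn it into epoxides. Carboxylesterases are serine hydrolases that split ester and amide bonds in lipids and drugs. Several Cyp4a genes are textbook targets of the fatty acid receptor PPAR-alpha, and Cyp1 genes are targets of the aryl hydrocarbon receptor AHR.

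Diabetic glomerular libraries held 36339294 to 40696477 counts each and control ones 40001932 to 41876031. Diabetic cortex libraries held 60628981 to 72352656 counts each and control ones 57473100 to 69947387. Diabetic glomerular libraries 1 and 4, and control glomerular libraries 3 and 4, lay so close in their counts (chi-square per gene 6.69 and 2.76, against 45.7 or more for other pairs of the 2 groups) that each pair was summed into 1 sample, called 1+4 and 3+4. This left n = 3 diabetic and n = 3 control glomerular samples, and n = 4 of each in cortex. Levels are CPM, counts scaled to a library size that TMM had adjusted, unless FPKM, which also divides by gene length, is named. Log2 fold changes are diabetic over control ± SE from edgeR's quasi-likelihood test, and a gene is said to rise or fall where its Benjamini-Hochberg adjusted p over all genes of the tissue was under 0.05. Podocyte markers summed to 2433 to 4591 CPM in diabetic and 4763 to 5959 CPM in control glomeruli, against 398 to 454 CPM in diabetic and 438 to 470 CPM in control cortex. Proximal tubule markers (20 genes) summed to 22259 to 25678 CPM in diabetic and 22485 to 32256 CPM in control cortex. In glomeruli they summed to 1464, 117 and 711 CPM in diabetic samples 1+4, 2 and 3, and to 89.4 to 104 CPM in controls. Xist was at most 0.227 CPM in every cortex library, where 4 Y-linked genes had 17.8 to 60.8 CPM each. In glomeruli Xist had 61.7, 7.53 and 25.6 CPM in diabetic samples 1+4, 2 and 3, and 12.3, 10.0 and 6.62 CPM in control samples 1, 2 and 3+4, where the Y-linked genes had 21.8 to 108 CPM. The labels give no sex.

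In control cortex a few members made up most of the family's transcripts. By FPKM, which allows levels of different genes to be set side by side, Cyp4b1 led with a mean of 1522 FPKM, or 33.2% of the sum over the 89 members. Cyp2e1, which oxidises ethanol and small solvents, followed with 754 FPKM, and Cyp2j5, an arachidonic acid epoxygenase of the proximal tubule, with 656 FPKM. The carboxylesterase Ces1f had 222 FPKM, Cyp2a4, a steroid hydroxylase, 190 FPKM, and Cyp4a10, a fatty acid omega-hydroxylase, 165 FPKM. The next were Ces2c (142 FPKM), Ces1d (137 FPKM), Cyp4a31 (129 FPKM) and Cyp2j11 (119 FPKM). A mean of at least 1 CPM was reached by 44 of 89 members in diabetic cortex and by 45 in control cortex, and 10 and 9 members had no count in any library of these groups.

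Control glomeruli held little of this. Of 60 members tested in the joined table, 49 were lower and 4 higher in control glomeruli than in control cortex, against 39.7% lower and 38.7% higher among all 16512 genes tested. The filter on low counts ran over all groups together, so a gene could pass on its cortex counts alone. The median log2 difference, glomeruli over cortex, was -6.32 for the members and -0.03 for all genes. With DESeq2, which also keeps genes of low counts, the medians were -4.11 and -0.06. The tables had been counted in different ways and on different annotations, so part of such a difference can come from the counting. The highest level in control glomeruli was that of Cyp1b1, which encodes an enzyme of steroid, retinoid and polycyclic hydrocarbon oxidation. It had 2119, 2162 and 2119 CPM in control glomerular samples 1, 2 and 3+4, and 42.2, 26.1, 36.7 and 56.6 CPM in control cortex libraries 1 to 4. The log2 difference was 5.42 ± 0.30 (edgeR adjusted p = 1.87e-09). The other members higher in glomeruli were Cyp20a1, an orphan P450 (log2 difference 1.20 ± 0.12), Cyp4v3, a fatty acid hydroxylase (0.75 ± 0.19), and Cyp4f16, another of that class (0.52 ± 0.16). Cyp26b1, which breaks down retinoic acid, had 24.1 to 32.1 CPM in control glomeruli and 1.32 to 16.2 CPM in control cortex, and did not pass (1.12 ± 0.55, edgeR adjusted p = 0.0803).

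In diabetic cortex the members moved in both directions. Of 60 tested, 9 rose and 9 fell, which is 15% each way, against 10.8% of all 19228 genes that rose and 9.29% that fell. The median log2 fold change was -0.02 over the members (0.02 when scaled by library totals) and 0.00 over all genes. The groups did not overlap for 15 of the 60 members, 13 of them called, where 24.9% of all genes had groups that did not overlap. In bulk tissue, fewer cells of a type and less RNA per cell cannot be told apart. Of the 20 proximal tubule markers, 10 fell and 1 rose in diabetic cortex (median log2 -0.36), and 7 of 11 macrophage and lymphocyte markers rose. Their part in the results on the members was not tested.

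The fatty acid hydroxylases of the Cyp4 family held most of the increases, with 5 members higher and 1 lower of 12 tested. Of all 19228 genes tested in cortex, 10.8% rose and 9.29% fell. Cyp4a14 (GRCm38 chromosome 4, 115486200 to 115496142), a PPAR-alpha target that hydroxylates fatty acids at their end, had 348, 511, 735 and 535 CPM in diabetic libraries 1 to 4, and 72.1, 71.8, 76.6 and 162 CPM in control libraries 1 to 4. Every diabetic library lay above every control library, and control library 4 lay above the other controls. Its log2 fold change was 2.47 ± 0.35 (edgeR adjusted p = 0.00311). Its neighbour Cyp4a10 (chromosome 4, 115518264 to 115533649) had 595, 686, 811 and 585 CPM in diabetic libraries, against 334, 323, 346 and 511 CPM in control libraries. The groups did not overlap, and the change was 0.82 ± 0.16 (edgeR adjusted p = 0.0076). Cyp4a31, which lies between Cyp4a10 and Cyp4b1 on the same chromosome, had 349 to 405 CPM in diabetic and 330.0 to 398 CPM in control libraries. It was not called (log2 0.08 ± 0.08, edgeR adjusted p = 0.556), and neither was Cyp4a32 (0.00 ± 0.17, 0.997). Reads of these copies may be shared: of the 50-base words of the Cyp4a10 transcript 30.5% also occur in other genes, mostly Cyp4a32, and 21.7% of those of Cyp4a31, but only 0.245% of those of Cyp4a14.

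The same family's Cyp4f genes rose from lower levels. Cyp4f16 had 10.6, 14.4, 14.2 and 13.1 CPM in diabetic libraries, against 7.95, 4.92, 6.71 and 5.49 CPM in control libraries, with no overlap. Its log2 fold change was 1.06 ± 0.16 (edgeR adjusted p = 0.00228), and 26.5% of its transcript's words are shared, mostly with Cyp4f37. Cyp4f18, which inactivates leukotriene B4 in mouse neutrophils, had 1.68, 1.40, 2.16 and 2.62 CPM in diabetic and 0.840, 0.536, 0.585 and 0.635 CPM in control libraries, again with no overlap (log2 1.60 ± 0.27, edgeR adjusted p = 0.00358). Macrophage and lymphocyte markers moved the same way: their sum was 507 to 782 CPM in diabetic and 208 to 367 CPM in control libraries, and their part in the Cyp4f18 result was not tested. Cyp4f17 rose by less (log2 0.38 ± 0.11, edgeR adjusted p = 0.0388). Cyp4f13, the most abundant Cyp4f gene of the cortex at 32.7 to 35.1 CPM in diabetic and 30.0 to 33.7 CPM in control libraries, did not pass the test (0.09 ± 0.06, 0.341). The member that fell was Cyp4b1 (chromosome 4, 115624725 to 115647723), the most abundant of all. It had 2890, 2377, 1905 and 2233 CPM in diabetic libraries, against 3704, 4524, 4617 and 2299 CPM in control libraries. Control library 4 lay among the diabetic libraries and the other controls above them (log2 -0.69 ± 0.21, edgeR adjusted p = 0.048).

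**Figure D1:**
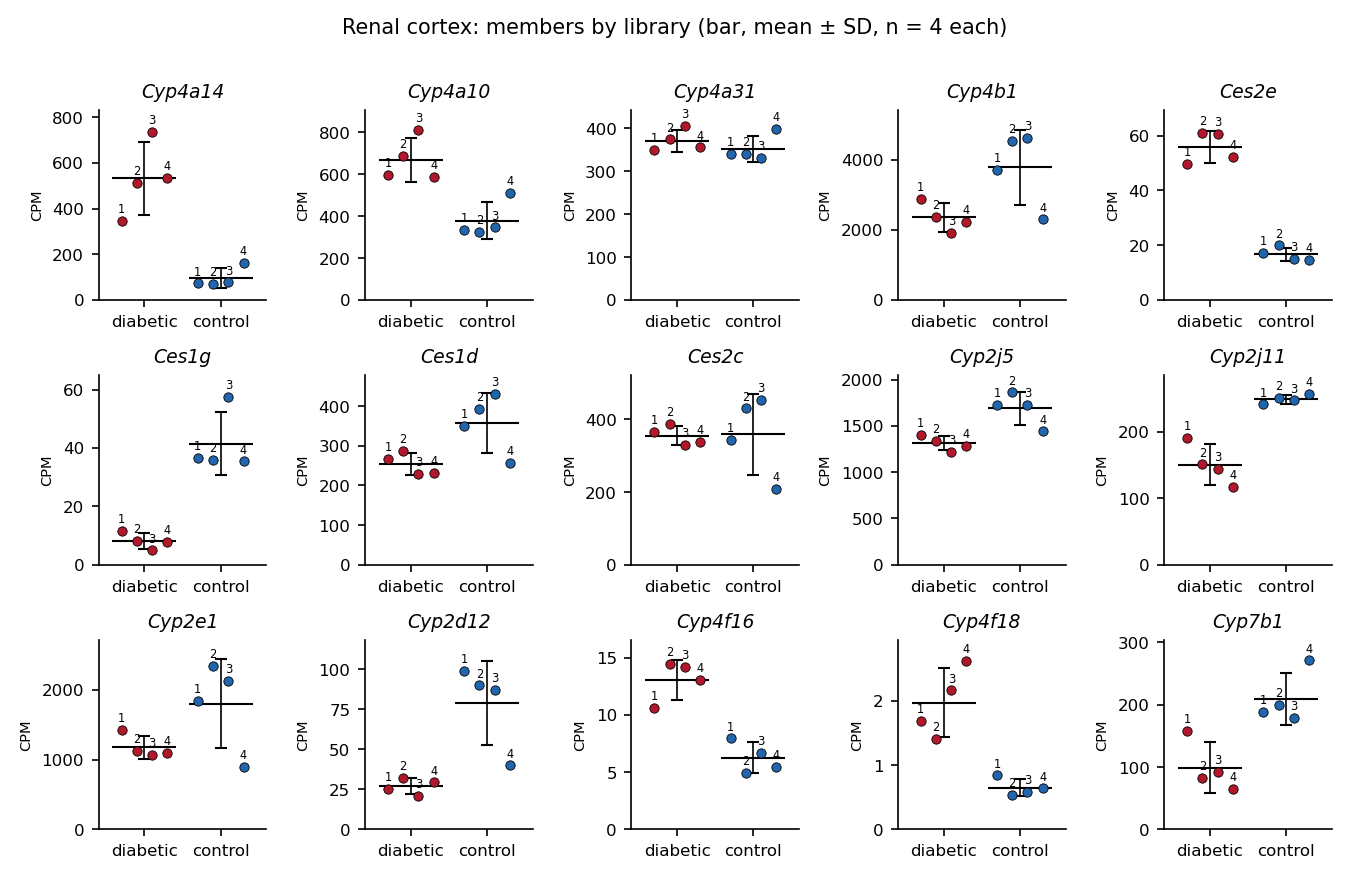
Level in CPM of 15 members in each renal cortex library, diabetic (red) left of control (blue), with library numbers, the mean as a bar and the SD as an error bar (n = 4 each). Cyp4a14 and Ces2e lie higher and Ces1g lower in all 4 diabetic libraries, while control library 4 lies apart from the other controls in Cyp4b1, Cyp2e1, Ces1d and Ces2c.

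The carboxylesterases held the clearest opposite changes, with 1 member higher and 3 lower of 12 tested, against 10.8% and 9.29% of all genes. Ces2e (chromosome 8, 104926260 to 104934672) had 49.5, 61.1, 60.6 and 52.3 CPM in diabetic libraries, against 17.1, 19.9, 15.1 and 14.5 CPM in control libraries. The lowest diabetic library was above the highest control library by more than the whole range of either group, and the log2 fold change was 1.75 ± 0.11 (edgeR adjusted p = 2.98e-05). Ces2c, a neighbour of the same subfamily on chromosome 8 (104847068 to 104854483), had 330.4 to 389 CPM in diabetic and 208 to 454 CPM in control libraries, and was not called (-0.01 ± 0.21, edgeR adjusted p = 0.974). Ces2c shares 42.2% of its transcript's words with other genes, mostly the pseudogene Ces2d-ps, whereas Ces2e shares 3.36%. The 250 bases before the RefSeq start sites of the 2 genes are shown because these neighbours differed in response. They are from GRCm38.p6, plus strand, chr8:104926010-104926259 for Ces2e and chr8:104846818-104847067 for Ces2c, and are 52.3% identical when aligned. Neither window holds, on either strand, the TATA box letters TATAAA, the nuclear receptor element AGGTCA or the AHR core GCGTG. The Ces2c window holds the CCAAT box on the minus strand, at position -117 from the start, and the Ces2e window holds none. All bases are in lower case.
Ces2e: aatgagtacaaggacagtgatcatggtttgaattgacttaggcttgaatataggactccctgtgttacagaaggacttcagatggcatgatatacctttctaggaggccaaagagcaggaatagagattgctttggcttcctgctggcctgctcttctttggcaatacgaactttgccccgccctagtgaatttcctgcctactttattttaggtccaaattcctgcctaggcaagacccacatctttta
Ces2c: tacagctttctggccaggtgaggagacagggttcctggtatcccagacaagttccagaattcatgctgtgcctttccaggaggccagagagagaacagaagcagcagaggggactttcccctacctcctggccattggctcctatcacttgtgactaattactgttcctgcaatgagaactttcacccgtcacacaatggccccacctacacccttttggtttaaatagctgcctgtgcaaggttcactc

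Ces1g, which hydrolyses triglycerides in mouse liver (chromosome 8, 93302369 to 93337308), showed the largest fall among members called in cortex. It had 11.7, 8.12, 4.91 and 7.80 CPM in diabetic libraries, against 36.6, 36.0, 57.5 and 35.4 CPM in control libraries. The groups were far apart, and control library 3 lay above the other controls (log2 -2.35 ± 0.27, edgeR adjusted p = 0.00127). Ces1e and Ces1d fell less. Ces1e had 61.4, 52.9, 48.0 and 60.5 CPM in diabetic and 104, 104, 99.7 and 55.5 CPM in control libraries (log2 -0.70 ± 0.19, edgeR adjusted p = 0.0344). Ces1d had 268, 287, 229.9 and 232 CPM in diabetic and 349.5, 394, 431 and 257 CPM in control libraries (-0.49 ± 0.15, 0.041). In both genes control library 4 lay within the diabetic range and the other 3 controls above it. Ces1f, the most abundant carboxylesterase, lay at 531 to 677 CPM in diabetic and 547 to 935 CPM in control libraries and did not pass (-0.41 ± 0.16, edgeR adjusted p = 0.101).

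Among the epoxygenase families 2 of 10 tested members fell and none rose (0 called higher by edgeR at adjusted p under 0.05). Among all genes tested in cortex, 9.29% fell and 10.8% rose. Cyp2j11 had 191, 151, 144 and 117 CPM in diabetic libraries, against 242, 252, 247 and 257 CPM in control libraries, with no overlap (log2 -0.73 ± 0.12, edgeR adjusted p = 0.00364). Cyp2j5 (chromosome 4, 96628773 to 96664154) had 1400, 1342, 1224 and 1281 CPM in diabetic libraries, against 1726, 1862, 1727 and 1441 CPM in control libraries. These groups too did not overlap, by a small margin between diabetic library 1 and control library 4 (-0.36 ± 0.09, 0.0219). Cyp2j13 had 263 to 336 CPM in diabetic and 199 to 618 CPM in control libraries and did not pass (-0.56 ± 0.31, edgeR adjusted p = 0.25). Cyp2c23, a main epoxygenase of the rodent kidney, had 27.4 to 33.0 CPM in diabetic and 22.9 to 39.5 CPM in control libraries (0.09 ± 0.15, 0.712). Cyp2c65 had 0, 0.140, 0.313 and 0.129 CPM in diabetic libraries and no count in any control library, so with 3 counts assumed over the control group it was at least 12.2-fold higher. It was too low to be tested, and such bounds cover counting error only. This bound rests on 0, 10, 20 and 8 counts in diabetic libraries 1 to 4. Of the words of the Cyp2c65 transcript 20.65% also occur in other genes, mostly Cyp2c66, so reads may be shared.

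Of the other Cyp2 members and orphans, 2 rose and 2 fell of 15 tested. These counts are near the shares of all genes in cortex, of which 10.8% rose and 9.29% fell. Cyp2d12 had 25.4, 32.2, 20.9 and 29.3 CPM in diabetic libraries, against 98.8, 89.9, 86.9 and 39.9 CPM in control libraries. No library overlapped, and control library 4 lay between the diabetic libraries and the other controls (log2 -1.55 ± 0.28, edgeR adjusted p = 0.00812). Cyp2d26 had 81.6, 97.1, 90.5 and 110.4 CPM in diabetic and 161, 137, 118 and 124 CPM in control libraries (-0.51 ± 0.11, 0.0128). Cyp2d22, of the same cluster, moved the other way with 31.4, 37.5, 33.6 and 33.6 CPM in diabetic and 20.6, 21.6, 20.6 and 31.9 CPM in control libraries (0.52 ± 0.14, edgeR adjusted p = 0.0254). Cyp2f2, known for naphthalene oxidation in mouse lung, had 3.40, 4.02, 4.07 and 5.15 CPM in diabetic and 2.69, 2.94, 1.58 and 1.10 CPM in control libraries (1.00 ± 0.30, 0.0388). Cyp2d12 and Cyp2d26 share 17.9% and 10.5% of their words with other genes. Cyp2e1 had 1424, 1124, 1061 and 1099 CPM in diabetic and 1843, 2337, 2124 and 896 CPM in control libraries. Control library 4 lay below every diabetic library and the other controls above all of them, and the gene did not pass (-0.61 ± 0.26, edgeR adjusted p = 0.138). Cyp2a4 (425 to 736 CPM in diabetic and 273 to 521 CPM in control libraries) and Cyp2d9 (122 to 183 CPM in diabetic and 97.3 to 209.6 CPM in control libraries) did not pass either (0.61 ± 0.24, 0.105, and 0.10 ± 0.24, 0.82), and Cyp2a4 shares 38.8% of its words, mostly with Cyp2a5.

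The steroid and bile acid P450s had 1 member higher and 1 lower of 5 tested in cortex, against 10.8% and 9.29% of all genes. So few members give no result about the class. Cyp7b1, an oxysterol 7-alpha-hydroxylase (chromosome 3, 18071950 to 18243338), had 157, 82.7, 92.3 and 64.5 CPM in diabetic libraries, against 189, 199.8, 178 and 271 CPM in control libraries. All diabetic libraries lay below all controls (log2 -1.08 ± 0.28, edgeR adjusted p = 0.0293). The mitochondrial sterol 27-hydroxylase gene Cyp27a1 had 70.1, 66.0, 56.1 and 71.0 CPM in diabetic and 54.0, 56.5, 41.9 and 50.6 CPM in control libraries, so diabetic library 3 overlapped the controls (0.38 ± 0.10, 0.0282). Cyp39a1 (-0.02 ± 0.14, 0.933) and the brain cholesterol hydroxylase gene Cyp46a1 (0.00 ± 0.31, 0.999) did not pass. None of the 3 vitamin D and retinoid P450s tested passed in cortex by edgeR. Cyp26b1 overlapped widely between the groups, with 10.8, 5.81, 8.87 and 9.48 CPM in diabetic and 1.32, 16.2, 9.35 and 15.3 CPM in control libraries. Cyp26a1, Cyp2r1, Cyp1a1, Cyp3a13 and Cyp3a11 were each below 2 CPM in every cortex library, and the 3 of the Cyp3a family other than Cyp3a13 that are in the cortex table had at most 0.113 CPM. Cyp1b1 had 35.8, 37.9, 56.1 and 34.3 CPM in diabetic and 42.2, 26.1, 36.7 and 56.6 CPM in control cortex (0.02 ± 0.25, edgeR adjusted p = 0.968).

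Control cortex library 4 decided several of these results. Without it, 10 members rose and 13 fell of 62 tested (16.1% and 21%), against 12.7% and 11.5% of all 19533 genes. Cyp2e1 (log2 -0.84 ± 0.11, edgeR adjusted p = 0.000882), Cyp2j13 (-0.81, 0.00339), Ces1f (-0.56, 0.00165), Cyp2j9 (-0.44, 0.0247) and Ces2h (-0.67, 0.0253) were then lower in diabetic cortex. Cyp2a4 (0.85, 0.0205) and Cyp2b9 (1.43, 0.0281) were then higher. Cyp7b1 (-0.93, 0.0824) and Cyp4f17 (0.32, 0.0642) no longer passed. Genes known to be higher in kidneys of male mice summed to 14038 CPM in control library 4, to 18147 to 20646 CPM in the other controls and to 11678 to 17812 CPM in diabetic libraries. Kap made up most of this sum. Among controls, Kap, Odc1 and Slco1a1 were lowest in library 4, whereas Slc7a13 was highest there and Acsm3 lay within the range of the others. Genes known to be higher in kidneys of female mice summed to 436 CPM in control library 4, to 191 to 316 CPM in the other controls and to 350 to 438 CPM in diabetic libraries, while Xist was at 0 in control library 4. The proximal tubule marker sum was 22485 CPM in control library 4 and 30299 to 32256 CPM in the other controls. The part of these differences in the results on the members was not tested. Across all 8 ways of leaving out 1 cortex library, 9 of the 18 called members kept their call: Cyp4a14, Cyp4a10, Cyp4f16, Cyp4f18, Ces2e, Ces1g, Cyp2d12, Cyp2d26 and Cyp2j11. The other 9 lost it without at least 4 of the 8 libraries, with adjusted p up to 0.129 (Cyp4b1 without diabetic library 3), and none changed direction. The count of members that rose was 5 without control library 3, diabetic library 2 or diabetic library 4. The count that fell was 4 without control library 1, control library 2, or diabetic library 2, 3 or 4.

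**Figure D2:**
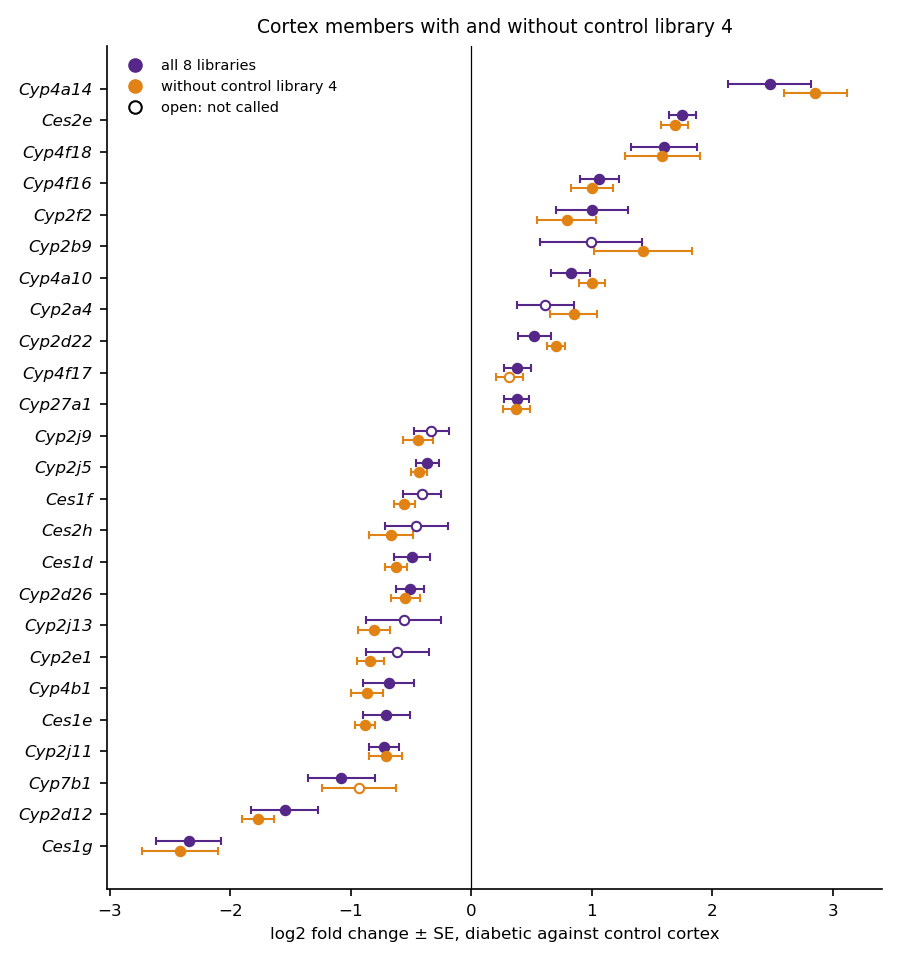
Log2 fold change ± SE, diabetic over control cortex, of the 25 members called with all 8 libraries (purple) or without control library 4 (orange), with open circles where the member was not called. Cyp4a14 and Ces1g lie at the ends either way, and 7 members are called only without that library.

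In diabetic glomeruli 18 members rose and 2 fell of 40 tested (45% and 5%), against 19.4% and 18.2% of all 15238 genes. A gene could pass the filter on low counts through its diabetic samples alone, and could then only be called higher. Such members included Cyp21a1, with no count in any control sample. Cyp3a13, with 0, 1 and 1 counts in control samples 1, 2 and 3+4, and Cyp26a1, with 9, 7 and 7, were others. The groups did not overlap for 17 of the 40 members, where 54.2% of all genes had groups that did not overlap. With library totals in place of TMM scaling, 18 members rose and 1 fell, and among all genes 4390 rose and 1661 fell, against 2950 and 2767 with TMM. That scaling moved the median log2 of all genes to 0.20, against 0.01 with TMM. Cyp1b1 (chromosome 17, 79701537 to 79715061) was the member that fell most. It had 311, 363 and 590.1 CPM in diabetic samples 1+4, 2 and 3, against 2119, 2162 and 2119 CPM in control samples 1, 2 and 3+4. The 3 control samples lay close together and the highest diabetic sample lay far below them (log2 -2.34 ± 0.25, edgeR adjusted p = 0.00121). Mesangial and smooth muscle markers summed to 3462, 3977 and 6226 CPM in diabetic samples 1+4, 2 and 3 and to 17545 to 20029 CPM in control samples. The order of this sum over the diabetic samples was that of Cyp1b1. Acta2 and Tagln made up most of the sum and, with Des and Cnn1, had that order in CPM. Pdgfrb, Gata3, Itga8, Myh11 and Ren1 did not have it. Of these 9 markers 5 fell and none rose (0 called higher by edgeR), and their part in the Cyp1b1 result was not tested. The orphan Cyp20a1 had 32.7, 37.2 and 34.5 CPM in diabetic and 44.6, 51.4 and 45.1 CPM in control samples (-0.43 ± 0.09, edgeR adjusted p = 0.0122). Its adjusted p was 0.085 with library totals and 0.062 without diabetic sample 1+4.

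The 250 bases before the Cyp1b1 start site are shown because this gene had both the highest level and the largest fall among called members in glomeruli. They are from GRCm38.p6, minus strand, chr17:79715062-79715311, written 5′ to 3′ along the gene. Capitals mark the single match to GCGTG, the core letters of the AHR element, which lies on the other strand with its first base 76 bases before the start. GCGTG occurs on either strand in 28.2% of 32851 promoter windows of this length. The second window, of Cyp26a1 (plus strand, chr19:37697558-37697807), is shown because that gene rose in glomeruli and its window holds, 32 bases before the start, AGNTCA repeated in the same direction after a gap of 5 bases, the spacing known for retinoic acid receptors, searched on either strand and in capitals here. That pattern is in 0.198% of all windows and in 1 of the 79 member windows.
Cyp1b1: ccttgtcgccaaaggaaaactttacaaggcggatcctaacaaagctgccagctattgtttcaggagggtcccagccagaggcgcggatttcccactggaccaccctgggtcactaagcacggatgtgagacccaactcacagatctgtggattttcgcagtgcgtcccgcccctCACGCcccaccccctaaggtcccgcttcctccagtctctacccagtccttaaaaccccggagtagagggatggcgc
Cyp26a1: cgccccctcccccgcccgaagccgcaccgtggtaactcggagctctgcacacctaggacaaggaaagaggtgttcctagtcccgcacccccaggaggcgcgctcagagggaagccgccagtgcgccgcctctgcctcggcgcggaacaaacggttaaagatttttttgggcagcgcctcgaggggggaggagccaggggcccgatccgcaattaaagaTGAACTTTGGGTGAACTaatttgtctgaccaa

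A first group of members rose in all 3 diabetic samples. Cyp26a1, the retinoic acid hydroxylase that retinoic acid itself induces (chromosome 19, 37697798 to 37701536), had 1.15, 1.51 and 1.02 CPM in diabetic samples 1+4, 2 and 3, against 0.242, 0.185 and 0.0890 CPM in control samples 1, 2 and 3+4. Every diabetic sample was above every control (log2 2.89 ± 0.44, edgeR adjusted p = 0.00347). Cyp39a1, an oxysterol 7-alpha-hydroxylase, had 11.9, 11.2 and 8.83 CPM in diabetic and 5.18, 4.87 and 6.53 CPM in control samples (0.94 ± 0.19, 0.00956). Cyp4f16 had 17.7, 17.5 and 19.2 CPM in diabetic and 12.0, 10.4 and 10.9 CPM in control samples (0.71 ± 0.11, edgeR adjusted p = 0.00346). Cyp4f18 had 2.51, 2.44 and 6.69 CPM in diabetic and 0.430, 0.767 and 0.140 CPM in control samples, with sample 3 the highest (3.17 ± 0.72, 0.0152). Its adjusted p was 0.0617 without control sample 1. Cyp3a13, of the drug-oxidising Cyp3a family, had 0.269, 0.821 and 0.262 CPM in diabetic and 0, 0.0264 and 0.0127 CPM in control samples, with diabetic sample 2 the highest (4.86 ± 0.89, edgeR adjusted p = 0.00684). Cyp21a1, the steroid 21-hydroxylase of the adrenal cortex, had 0.526, 0.388 and 0.310 CPM in diabetic samples and no count in any control sample. With 3 counts assumed over the control group it was at least 20.9-fold higher (edgeR adjusted p = 0.0039). It passed the filter on low counts through the diabetic samples alone, so it could only be called higher, and the same holds for Cyp3a13 and Cyp26a1. Cyp21a1 shares 26.5% of its words, mostly with the pseudogene Cyp21a2-ps. The adrenal cortex markers summed to 1.76 to 3.26 CPM in diabetic and 1.58 to 2.33 CPM in control samples. Akr1b7 and Star carried these sums. Nr5a1 and Mrap had at most 1 count in each sample, and Mc2r and Hsd3b1 had no glomerular values. The steroid P450 gene Cyp11a1, too low to be tested, had 0.440, 0.228 and 0.238 CPM in diabetic and 0.0269, 0.0264 and 0.0508 CPM in control samples. Cyp11b1 had 1.22, 1.25 and 3.38 CPM in diabetic and 1.64, 3.38 and 1.67 CPM in control samples. Cyp4f17 (0.40 ± 0.13, edgeR adjusted p = 0.0497) and Cyp2j6 (0.61 ± 0.17, 0.0338) rose by less, and each lost its call in 5 of 6 leave-outs of 1 sample.

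A second group of 10 members rose with high levels in 2 of the 3 diabetic samples. Cyp4a10 had 23.8, 0.319 and 9.88 CPM in diabetic samples 1+4, 2 and 3, against 0.0806, 0.397 and 0.216 CPM in control samples 1, 2 and 3+4 (log2 5.62 ± 1.45, edgeR adjusted p = 0.0242). Cyp2j5 had 57.4, 3.38 and 27.2 CPM in diabetic and 4.38, 2.57 and 1.69 CPM in control samples (3.37 ± 0.95, 0.0327). Ces1d, a triglyceride hydrolase, had 21.9, 1.03 and 10.9 CPM in diabetic and 0.645, 1.43 and 0.686 CPM in control samples (3.63 ± 1.02, edgeR adjusted p = 0.0317). In each of these genes sample 2 lay within the control range and samples 1+4 and 3 above it. Cyp4a31, Cyp2j13, Ces1f, Cyp2d26 and Cyp2e1 had the same shape, with sample 2 within or below the control range, and log2 fold changes of 5.01, 2.51, 2.90, 4.32 and 2.17. In Cyp2j11 and Ces1e sample 2 lay just above the controls (0.662 against at most 0.457 CPM, and 0.274 against at most 0.191 CPM). Cyp4a14 had 23.6, 0 and 10.8 CPM in diabetic and 0.0806, 0.132 and 0.0508 CPM in control samples and was removed by the filter on low counts. Each of these 10 members lost its call without any 1 of 3 to 5 of the 6 samples, with adjusted p up to 0.135 (Cyp2j13 without control sample 1). Their log2 fold changes stayed positive in these leave-outs, and that of Ces1d lay between 2.73 and 4.19. Without diabetic sample 2 all 10 held, and Ces2c (log2 2.38, edgeR adjusted p = 0.012), Cyp2d12 (2.49, 0.0183), Cyp2a4 (3.09, 0.0153) and Cyp2a5 (2.68, 0.0319) rose as well. Of 19 proximal tubule markers tested in glomeruli 14 rose and of 14 distal nephron markers 11 rose, against 19.4% of all genes. Their part in the result was not tested.

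Each gene's glomerular CPM was also expressed as a percentage of its mean CPM in cortex of the same condition, for the 37 members and 20 proximal tubule markers with at least 5 CPM in both cortex groups. The median over members was 8.61%, 1.19% and 4.24% in diabetic samples 1+4, 2 and 3, and 0.443%, 0.431% and 0.264% in control samples 1, 2 and 3+4. The median over proximal tubule markers was 6.95%, 0.361% and 3.75% in the diabetic samples, and 0.259%, 0.285% and 0.213% in the controls. Both lists thus had the same order of diabetic samples. The tables were normalized and counted separately, so only the order of samples within glomeruli is read from these percentages.

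**Figure D3:**
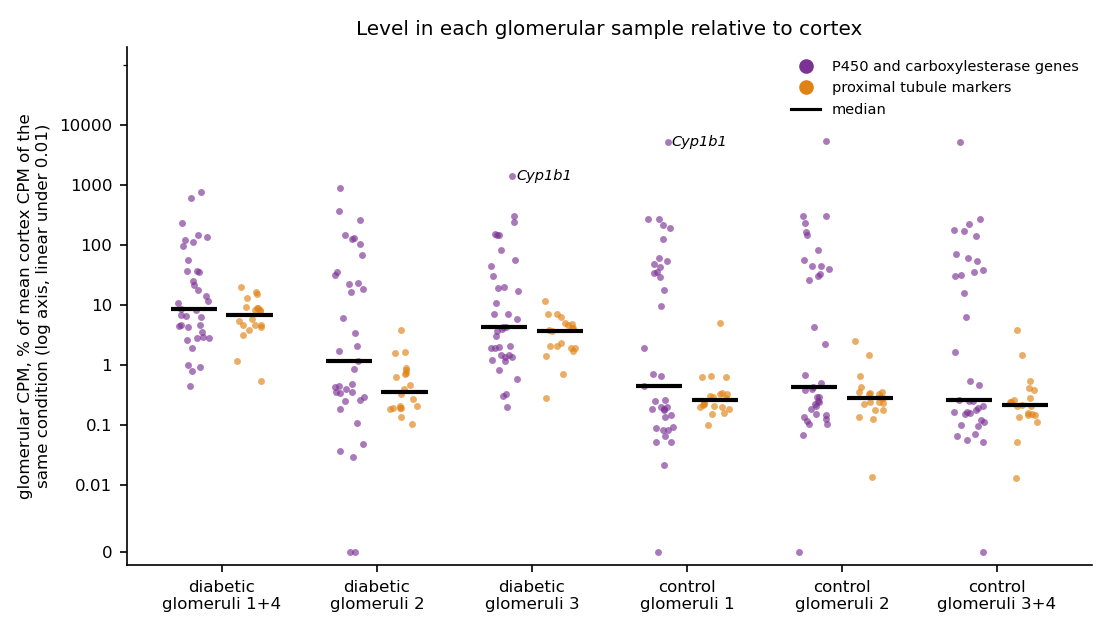
Level of each gene in each glomerular sample as a percentage of its mean CPM in cortex of the same condition (log axis, linear below 0.01), for 37 P450 and carboxylesterase genes (purple) and 20 proximal tubule markers (orange), with medians as bars. The medians are high in diabetic samples 1+4 and 3, and Cyp1b1 stands above the other members in control samples.

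With diabetic sample 2 as the only diabetic sample, 2 members rose and 1 fell of 42 tested (4.76% and 2.38%), against 8.56% and 5.92% of all 15835 genes. They were Cyp3a13 (log2 5.75, edgeR adjusted p = 0.0214), Cyp26a1 (3.22, 0.0345) and Cyp1b1 (-2.53, 0.00549). The lone sample is assumed there to vary as the controls do. Cyp4f16 (0.68, 0.0565), Cyp39a1 (1.03, 0.0648) and Cyp21a1 (adjusted p = 0.0854) were above the controls in sample 2 without passing by edgeR. Cyp4a31 was then at -0.84 (edgeR adjusted p = 0.457) and Ces1f at -0.08 (0.923). The count of members that rose in glomeruli was 6 without control sample 1, 9 without control sample 2, 7 without control sample 3+4, 8 without diabetic sample 1+4 and 10 without diabetic sample 3. It was 25 without diabetic sample 2. The count that fell was 1 without diabetic sample 1+4. Of the 20 calls in glomeruli, 6 held in each of the 6 leave-outs of 1 sample: Cyp1b1, Cyp26a1, Cyp3a13, Cyp39a1, Cyp4f16 and Cyp21a1. Among these, Cyp26a1, Cyp3a13 and Cyp21a1 had passed the filter on low counts through the diabetic samples alone and could only be called higher.

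**Figure D4:**
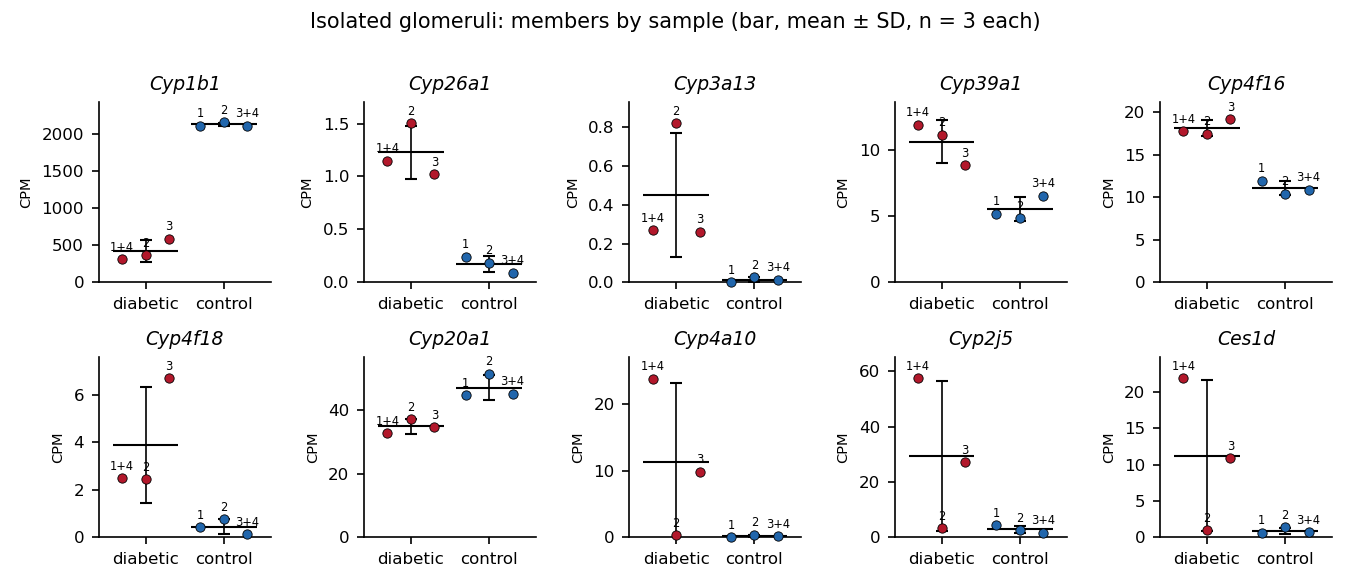
Level in CPM of 10 members in each glomerular sample, diabetic (red) left of control (blue), with sample numbers, the mean as a bar and the SD as an error bar (n = 3 each). Cyp1b1 is low and Cyp26a1 and Cyp4f16 are high in all 3 diabetic samples, whereas Cyp4a10, Cyp2j5 and Ces1d are high in samples 1+4 and 3 and near the controls in sample 2.

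The effect of diabetes was compared between the tissues in a model of all 4 groups, where a constant difference in counting cancels. It was higher in glomeruli than in cortex for 23 of 60 members and lower for 3 (38.3% and 5%), against 18.8% and 16.2% of all 16512 genes. The filter on low counts ran over all 4 groups together. The 60 thus include members kept for their cortex counts that were too low to be tested in glomeruli alone. The members with a lower effect in glomeruli were Cyp1b1 (glomeruli minus cortex, log2 -2.35 ± 0.38, edgeR adjusted p = 0.000441), Ces2e (-1.48 ± 0.22, 0.000229) and Cyp27a1 (-0.98 ± 0.27, 0.0123). Ces2e had 13.8, 9.10 and 9.41 CPM in diabetic glomerular samples, against 8.89, 9.23 and 9.03 CPM in control samples, and did not pass in glomeruli (0.25 ± 0.19, edgeR adjusted p = 0.325). Cyp26a1 (3.34 ± 0.84, 0.00785), Cyp3a13 (4.59 ± 1.00, 0.00354) and Cyp39a1 (0.96 ± 0.24, 0.00659) had a higher effect in glomeruli, where each had risen in all 3 diabetic samples. With diabetic glomerular sample 2 alone, 5 members had a higher and 3 a lower effect in glomeruli (7.58% and 4.55% of 66), against 10.3% and 11.7% of all 17249 genes. Without diabetic glomerular sample 1+4 the effect was lower in glomeruli for 5 members. Cyp4f16, Cyp4f17, Cyp4f18 and Cyp4a10 rose in both tissues, and Ces1d, Ces1e, Cyp2d26, Cyp2j5 and Cyp2j11 rose in glomeruli and fell in cortex. The share of all genes with such pairs of calls was not counted. The members with opposite calls all belong to the second glomerular group, with high levels in diabetic samples 1+4 and 3 only. In cortex, Ces1d, Ces1e and Cyp2j5 also lost their call in some leave-outs of 1 library. For Cyp4f16 and Cyp4f17 the difference between tissues did not pass, at -0.35 ± 0.22 (edgeR adjusted p = 0.251) and 0.02 ± 0.17 (0.941).

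**Figure D5:**
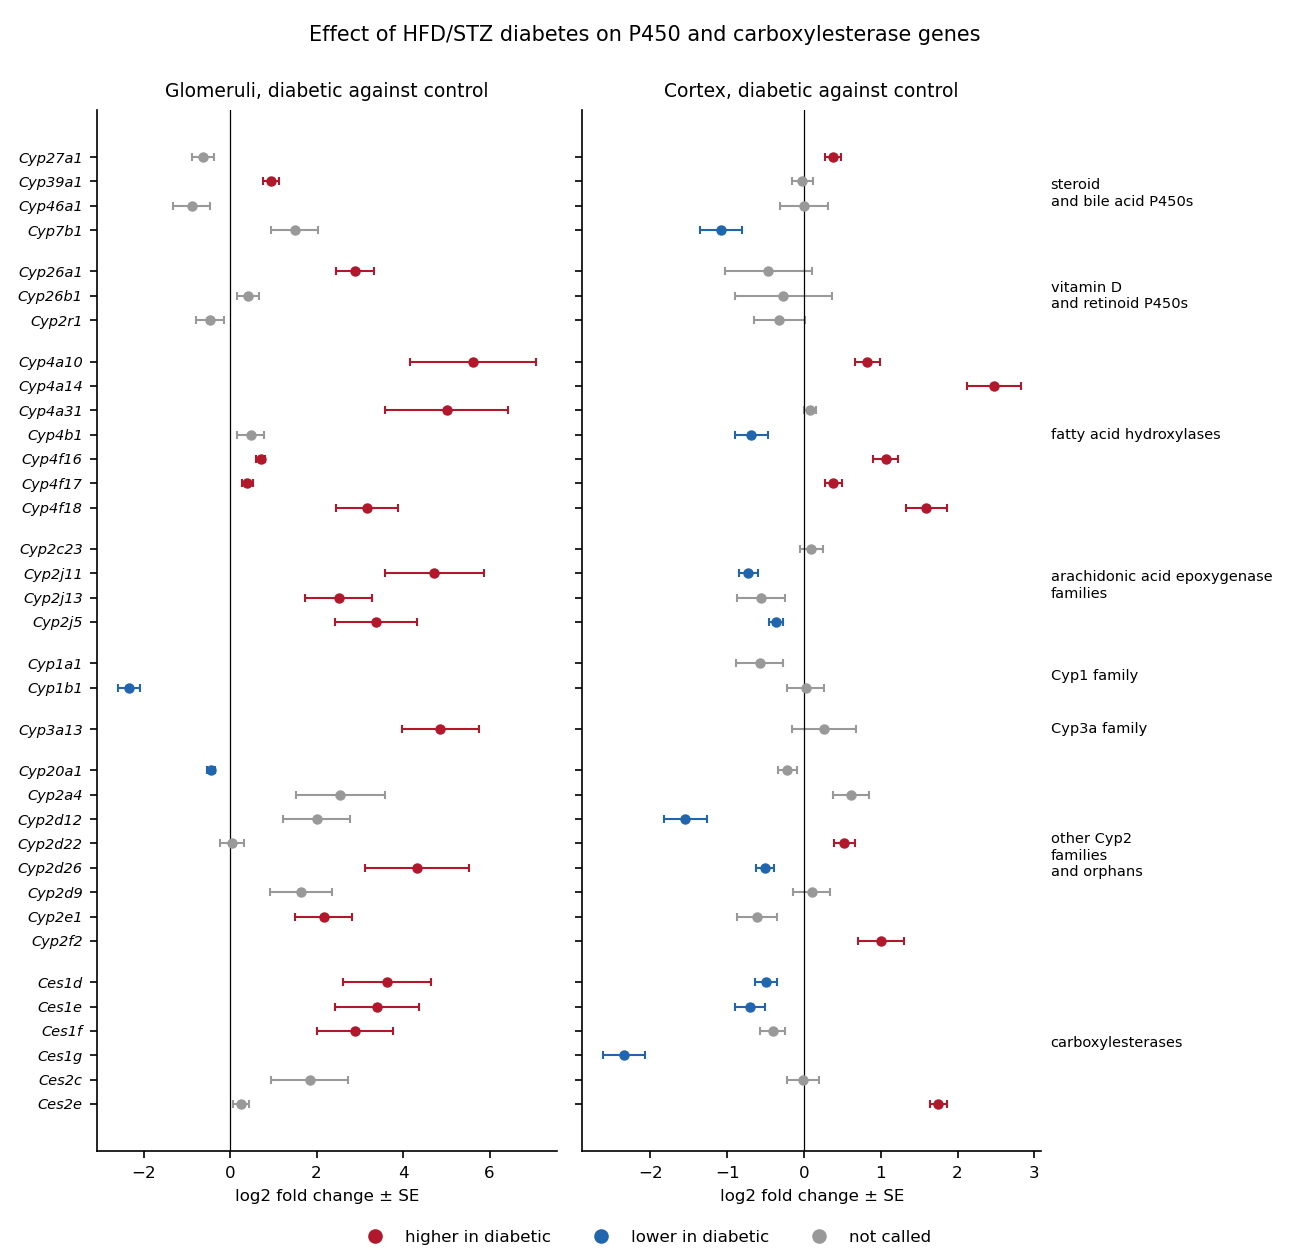
Log2 fold change ± SE, diabetic over control, of the named members that were tested, in glomeruli (left, n = 3 each) and cortex (right, n = 4 each), grouped by role and coloured by call. Cyp1b1 lies at -2.34 in glomeruli and 0.02 in cortex, and Ces2e at 0.25 in glomeruli and 1.75 in cortex.

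Other genes of these pathways were counted by the same test. Among all genes tested, 10.8% rose and 9.29% fell in cortex, and 19.4% rose and 18.2% fell in glomeruli. With lists this short, counts near these shares are not read as results about a list. Of 7 redox partners none rose and 3 fell in cortex by edgeR, among them Por, with 312, 285, 262 and 262 CPM in diabetic and 331, 354, 364 and 304 CPM in control libraries (log2 -0.27 ± 0.08, edgeR adjusted p = 0.0401). Cyb5b, a mitochondrial cytochrome b5, fell as well (-0.34 ± 0.07, 0.00686). In glomeruli Por rose (0.62 ± 0.09, edgeR adjusted p = 0.00259) and the cytochrome b5 reductase gene Cyb5r3 fell (-1.10 ± 0.10, 0.000761). No gene of heme synthesis and breakdown passed in cortex and 5 of 11 fell in glomeruli, led by Urod (-0.48 ± 0.08, edgeR adjusted p = 0.00579). Of the epoxide hydrolases and eicosanoid enzymes, 3 rose and 1 fell of 10 in cortex, and 2 rose and 1 fell of 9 in glomeruli. Ephx1, the microsomal epoxide hydrolase, had 123, 182, 176 and 154 CPM in diabetic and 33.3, 26.2, 48.0 and 53.7 CPM in control cortex (1.97 ± 0.24, edgeR adjusted p = 0.00155). In glomeruli it had 182, 198 and 235 CPM in diabetic and 349, 324 and 310.5 CPM in control samples (-0.68 ± 0.12, 0.0055). The other serine esterases had 1 member higher and 1 lower in each tissue, of 9 tested in cortex and 8 in glomeruli.

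The counts that follow stand against 10.8% of all genes that rose and 9.29% that fell in cortex, and 19.4% and 18.2% in glomeruli. Of 12 PPAR-alpha targets outside these families 4 rose and none fell in cortex by edgeR (median log2 0.42). In glomeruli 3 of 10 rose, led by the lipid droplet gene Plin2 (1.50 ± 0.15, edgeR adjusted p = 0.00104). Of the nuclear receptors and AHR, 1 rose and 4 fell of 19 in cortex, where Hnf4a, a regulator of proximal tubule and liver genes, fell (-0.39 ± 0.10, edgeR adjusted p = 0.0173), and 5 rose and 2 fell of 14 in glomeruli. Ahr itself had 33.6, 35.9 and 41.7 CPM in diabetic and 19.3, 18.5 and 20.8 CPM in control glomerular samples (0.92 ± 0.11, edgeR adjusted p = 0.00158). None of the AHR targets outside these families passed by edgeR, of 3 tested in cortex and 2 in glomeruli. Of 5 genes known to be higher in male mice 2 fell in cortex (Acsm3, -0.96 ± 0.16, and Slc7a13, -0.72 ± 0.16), and of 3 known to be higher in female mice none passed by edgeR. Hepatocyte markers summed to 472 to 668 CPM in diabetic and 286 to 386 CPM in control cortex, and of the 9 tested 4 rose. Apob, Ttr, Fga and Serpina1a made up most of these sums. Alb had 511 to 615 counts in diabetic and 313 to 546 counts in control cortex libraries.

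The promoter windows of the members were searched for short motifs on both strands. Some members, such as Cyp4f14, had several windows, and each window was counted. Of the 79 member windows in the RefSeq table, 22 held TATAAA on either strand, against 12.4% of all 32851 windows. AGGTCA was in 15 (14.0% of all windows), GCGTG in 15 (28.2%) and CCAAT in 35 (33.8%). A direct repeat of the looser element AGGNCA with 1 base between was in 3 (0.338%), and the HNF1-type motif was in none (0 of 79). The HNF4-type word CAAAGTCCA was in 8 member windows, against 0.384% of all windows. Those 8 were Cyp2c40, Cyp2c65, Cyp2c67, Cyp2c68, Cyp2c69, Cyp3a11, Cyp3a16 and Cyp8b1, and of these Cyp2c69 had the highest level, 0.438 to 1.34 CPM in diabetic and 0.311 to 1.44 CPM in control cortex. Related copies share these letters, so the 8 are not independent, and a match is not a bound site.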

How the data were processed

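RNA-seq tables of isolated glomeruli and renal cortex were used. The deposited glomerular values are raw counts per gene symbol, and the deposited cortex values are estimated counts per Ensembl gene made whole, as read from the values themselves. The authors also deposited FPKM, counts scaled by library depth and gene length, for both tissues. GRCm38 and mm10 are named in the submitters' processing notes; for the aligner, the counter and the strand setting, the answer is not given in the sources used here.

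Glomerular pairs closer than all other pairs of their group by a factor of more than 5 in chi-square per gene were summed. Each tissue was fitted alone with edgeR 4.0.16 in R 4.3.3 (filterByExpr, TMM, robust quasi-likelihood test, Benjamini-Hochberg adjustment over all genes tested, threshold 0.05). The contrast between tissues and that of control glomeruli with control cortex came from a model of 4 groups over 19050 genes joined by symbol. Genes were joined through the GENCODE and RefSeq names given for GRCm38, 31953 of 34264 in cortex and 19796 of 24722 in glomeruli directly and 322 more through synonyms. The fits within each tissue were tested on simulated counts. Alternatives were library totals, DESeq2 1.42.0, no filter, limma 3.58.1 on log2(FPKM + 1) or log2(FPKM + 0.1), separate libraries, diabetic glomerular library 2 alone, a replicate block and leaving out each sample.

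Members and gene lists were chosen with earlier results of these data known. Named were called members of at least 1 CPM, up to 12 each way, the 4 highest by control cortex FPKM in each role class, and up to 3 genes of each other list by smallest adjusted p. Cyp11a1, Cyp11b1, Cyp21a1, Cyp2c65, Cyp2c69, Cyp2j6, Cyp4a32, Cyp4f13, Cyp4v3 and members called in an alternative alone were named after their values were seen. So were some genes of the male, mesangial and hepatocyte lists. Others were named only for a motif or shared sequence. Shared sequence is the share of 50-base words of a gene's longest protein-coding transcript that occur in other genes. Promoter windows are from RefSeq, GRCm38.p6. The members had 79 windows between them, several for some members and none for others. A result on a gene outside the families is not reported here.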

Additional observations from a re-analysis of the deposited data

Results flagged for a closer look

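Of 75 groups of 4 cortex libraries checked, 9 held a library far from the other 3 of its group. Chance gives about 1 in 20 for independent, normally distributed values. The groups checked share the same libraries, so their count cannot be weighed against that rate. Control cortex library 4 was the far library 6 times. It was highest for Cyp4a14 (162 CPM), Cyp4a10 (511 CPM), Cyp4a31 (398 CPM) and Cyp2d22 (31.9 CPM), and lowest for Ces1e (55.5 CPM) and Cyp4f17 (7.92 CPM). Control cortex library 3 was highest for Ces1g (57.5 CPM) and Cyp3a57 (0.0585 CPM). Cyp3a57 had 4 counts there and 0 in the other controls, so any count would have stood apart. Diabetic cortex library 3 was highest for Cyp1b1 (56.1 CPM).

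The effect of diabetes differed between the tissues for 21 of 35 named members tested, by edgeR's quasi-likelihood test of the difference with Benjamini-Hochberg adjustment. Of all 16512 genes tested, 18.8% had a higher and 16.2% a lower effect in glomeruli, and many of the 35 were named because they had been called within a tissue, which raises their share. As log2 differences, glomeruli minus cortex, the carboxylesterases stood at 4.18 for Ces1d, 4.17 for Ces1e, 3.33 for Ces1f, 5.42 for Ces1g and -1.48 for Ces2e. The Cyp2 members stood at 4.48 for Cyp2c23, 3.64 for Cyp2d12, 4.89 for Cyp2d26, 2.81 for Cyp2e1, 5.55 for Cyp2j11, 3.15 for Cyp2j13 and 3.76 for Cyp2j5. Ces1g and Cyp2c23 were too low to be tested in glomeruli alone. In control glomerular samples 1, 2 and 3+4 Ces1g had 1, 2 and 5 counts, and Cyp2c23 1, 2 and 4. In diabetic samples 1+4, 2 and 3 they had 54, 6 and 20, and 160, 4 and 48 counts. The Cyp4 members stood at 4.83 for Cyp4a10, 4.98 for Cyp4a31 and 1.18 for Cyp4b1. The others were Cyp1b1 at -2.35, Cyp3a13 at 4.59, Cyp7b1 at 2.58, Cyp26a1 at 3.34, Cyp27a1 at -0.98 and Cyp39a1 at 0.96.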

How the results depend on the processing

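In cortex 9 members rose and 9 fell. Leaving out 1 library at a time gave 5 to 10 and 4 to 13, and without the filter on low counts 5 fell. In glomeruli 18 rose and 2 fell. Leaving out 1 sample at a time gave 6 to 25 (7 without control sample 3+4) and 1 to 2. Without the filter 11 rose, with log2(FPKM + 1) 8 rose and 1 fell, with log2(FPKM + 0.1) 9 rose and 1 fell, and with library totals 1 fell. With DESeq2 26 rose, and with all libraries separate 24. With diabetic library 2 alone 2 rose and 1 fell, and log2 fold changes turned to -0.077 for Ces1f and -0.84 for Cyp4a31. The effect was higher in glomeruli than in cortex for 23 members and lower for 3, with 19 to 28 and 3 to 5 when 1 sample was left out. With diabetic library 2 alone it was higher for 5, and the difference turned to -0.39 for Cyp4a10 and -0.97 for Cyp4a31. Control glomeruli against control cortex gave 4 higher and 49 lower members, with 4 to 5 and 45 to 49 when 1 sample was left out. Library totals took the share of calls that were higher to 72.6%, against 51.6%, among all genes in glomeruli, and to 69%, against 53.7%, in the contrast between tissues. The cause of these shifts was not tested.

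Same-numbered libraries did not deviate together (correlations from -0.15 to 0.08), and the main test used no pairing by number. Without a known pair to compare, these correlations cannot show whether same-numbered libraries share an animal. With a replicate block 8 members rose and 3 fell in cortex, 24 rose and 3 fell in glomeruli with all libraries separate, 21 differed upward between tissues and 48 were lower in control glomeruli than in control cortex. With 3 or 4 samples a group, members near 0 counts could not be tested.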

Other observations

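P450 genes outside the name pattern also moved. Cyp51, the lanosterol demethylase of cholesterol synthesis, fell in diabetic cortex (log2 -0.84 ± 0.20, edgeR adjusted p = 0.0213) and was not called in glomeruli (-0.23 ± 0.14, 0.221). Cyp4a12b, a fatty acid hydroxylase, had 3.55, 3.97 and 2.60 CPM in diabetic glomerular samples 1+4, 2 and 3, against 0.134, 0.476 and 0.280 CPM in control samples 1, 2 and 3+4 (3.50 ± 0.46, edgeR adjusted p = 0.00214). Unlike Cyp4a10, it was high in sample 2 as well. In cortex it was not called (0.17 ± 0.13, edgeR adjusted p = 0.408). Cyp4a12a, known to be higher in male mice, was not called in cortex either (-1.01 ± 0.35, 0.0816). The adipocyte markers summed to 105 CPM in control cortex library 3 and to at most 3.94 CPM in each of the other cortex libraries.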
